A study of Mus musculus with 22 samples.

Results

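Microglia of exposed mice treated with cannabidiol (CBD) were compared with those of unexposed mice, both without an immune challenge, by sequencing the polyadenylated RNA of sorted cells. The comparison holds 7 of the series' 22 libraries, 3 of the GW-CBD-PBS group and 4 of the Ctrl-PBS group, chosen by their library names, and covers all genes of the count table. It asks how near the treated exposed cells lie to resting cells that never met the exposure. GW-CBD-PBS mice were injected once a day for 10 days, from 10 weeks of age, with pyridostigmine bromide (0.7 mg/kg), a reversible inhibitor of acetylcholinesterase, and permethrin (200 mg/kg), a pyrethroid insecticide. At 17.5 months they entered the CBD arm, with 30 mg/kg a day for 28 days and then a dose every 2 days for 2 weeks. Ctrl-PBS mice received vehicle in place of both the chemicals and CBD. GW-PBS mice (4 libraries), which are placed beside them where useful, received the chemicals and the CBD vehicle. All these mice were male C57BL/6J (genotype label C57/BL6), all were aged the same way, and all received a PBS injection 24 hours before the brain was taken. Exposure and CBD both separate GW-CBD-PBS from Ctrl-PBS, and no unexposed CBD-treated group was analysed here, so the shares of exposure and CBD in a difference cannot be told apart. Whether a library was made from 1 mouse or from several is not stated in the labels, and the p-values here reflect variation among libraries, part of which may be technical.

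Microglia are the resident macrophages of the brain. In their resting state they survey the tissue, depend on signalling through the CSF1 receptor and on TGF-beta, and carry sensors such as the purinergic receptor P2ry12. With age, damage or infection they take up other programmes, among them a lipid-handling, phagocytic state led by Apoe and Trem2, interferon responses, antigen presentation and cytokine release. CBD is a plant cannabinoid with little action at the main neuronal cannabinoid receptor, and it is known for anti-inflammatory effects in animal models.

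The cells had been sorted as live CD45mid, CD11b+ and CD11a- cells, and the 6 microglia markers, among them P2ry12, Tmem119, Cx3cr1, Csf1r and Sall1, were high in every library, with sums of 38489.6 to 41023 CPM in GW-CBD-PBS and 31817 to 42370.3 CPM in Ctrl-PBS. CPM, counts scaled to a library total of 1e+06, use the library total as it stands in sums over a list and the total adjusted for composition (TMM factors) in single genes. Library totals ran from 33100476 to 40458326 counts in GW-CBD-PBS and from 31987884 to 37407567 in Ctrl-PBS. Ctrl-PBS replicate 3 stood apart through genes of neutrophils, blood granulocytes that the CD45mid and CD11a- gate should leave out. The 17 neutrophil markers summed to 713, 741 and 684 CPM in GW-CBD-PBS replicates 2, 3 and 4, against 688, 543, 28512 and 619.7 CPM in Ctrl-PBS replicates 1 to 4. Among the 7 libraries 16 of the 17 were highest there, the exception being Csf3r, a receptor gene with 573 to 652 CPM in GW-CBD-PBS and 476 to 606 CPM in Ctrl-PBS that makes up most of the sum elsewhere. In that library S100a8, S100a9 and Ngp, granule and cytosolic proteins of these cells, reached 3134, 5343 and 8913 CPM. Many estimates and medians that this library moved are given with and without it, and those given once may also move without it. GW-CBD-PBS replicate 3 also differed from its group in Apoe, class II antigen presentation and early response genes, as described with those genes. Since the RNA is a bulk of sorted cells, fewer cells of a type and less RNA per cell cannot be told apart.

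No gene passed the threshold between treated exposed and control microglia. Of 16554 genes tested, 0 (0%) had an adjusted p under 0.05 in edgeR's quasi-likelihood test with Benjamini-Hochberg adjustment, and the smallest adjusted p was 0.306, that of Ndrg1. At an unadjusted p under 0.05 there were 923 genes, 253 higher (1.53% of those tested) and 670 lower (4.05%) in GW-CBD-PBS, where about 828 would be expected with no difference. Without Ctrl-PBS replicate 3 the unadjusted count was 575, with 248 higher and 327 lower, and it was 547 without GW-CBD-PBS replicate 2 and 612 without GW-CBD-PBS replicate 4. With only the compared groups in the fit it was 1904. DESeq2 called 11 genes, all lower, and limma voom with library quality weights called 15, of which 5 were higher and 10 lower. Genes called by both tools included Aqp1, Clu and Ndrg1. The 2 adjoining comparisons gave the same count of calls in edgeR: 0 (0%) for GW-PBS against Ctrl-PBS, with 621 genes at an unadjusted p under 0.05 (1068 without GW-PBS replicate 2), and 0 (0%) for GW-CBD-PBS against GW-PBS, with 1569 (from 523 without GW-PBS replicate 1 to 3303 without GW-PBS replicate 2).

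A gene that misses the threshold is not thereby shown to be alike, so the 95% interval of each log2 fold change was read as well. That interval lay within 2-fold either way for 9417 of the 16554 genes (56.9%). The share followed the level of the gene. Among genes averaging over 100 CPM it was 1626 of 1712 (94.98%), among those at 20 to 100 CPM 4341 of 4734 (91.7%) and at 5 to 20 CPM 2554 of 3171 (80.5%). At 1 to 5 CPM it was 843 of 2590 (32.5%), and under 1 CPM 53 of 4347 (1.22%), where the median standard error was 0.91 on the log2 scale. For most genes under 5 CPM the interval therefore did not exclude a 2-fold difference at this number of libraries.

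Distances between whole profiles gave a value for how far apart the groups lay. The root mean square difference in log2 CPM over all tested genes averaged 0.925 over the 12 pairs of a GW-CBD-PBS with a Ctrl-PBS library, against 0.741 over the 3 pairs within GW-CBD-PBS and 0.998 over the 6 pairs within Ctrl-PBS. The mean between groups exceeded the mean within groups by 0.0124, and 12 of the 35 ways to split the 7 libraries into 3 and 4 gave at least as much (exact permutation test, one-sided, p = 0.343, smallest possible 0.0286). Without Ctrl-PBS replicate 3, control pairs averaged 0.849 and pairs across the groups 0.849, and the statistic was 0.0547 (exact permutation test, p = 0.1, the smallest possible in that design). GW-PBS libraries lay 0.967 from Ctrl-PBS libraries over 16 pairs and 0.966 from each other over 6, and GW-CBD-PBS libraries lay 0.889 from GW-PBS libraries over 12. Leaving out Ctrl-PBS replicate 4 instead gave a statistic of 0.0690 (exact permutation test, p = 0.1, also the smallest possible). The treated libraries were on average no farther from controls than controls were from each other while all 4 controls were included. Without Ctrl-PBS replicate 3 these means were nearly equal.

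**Figure D1:**
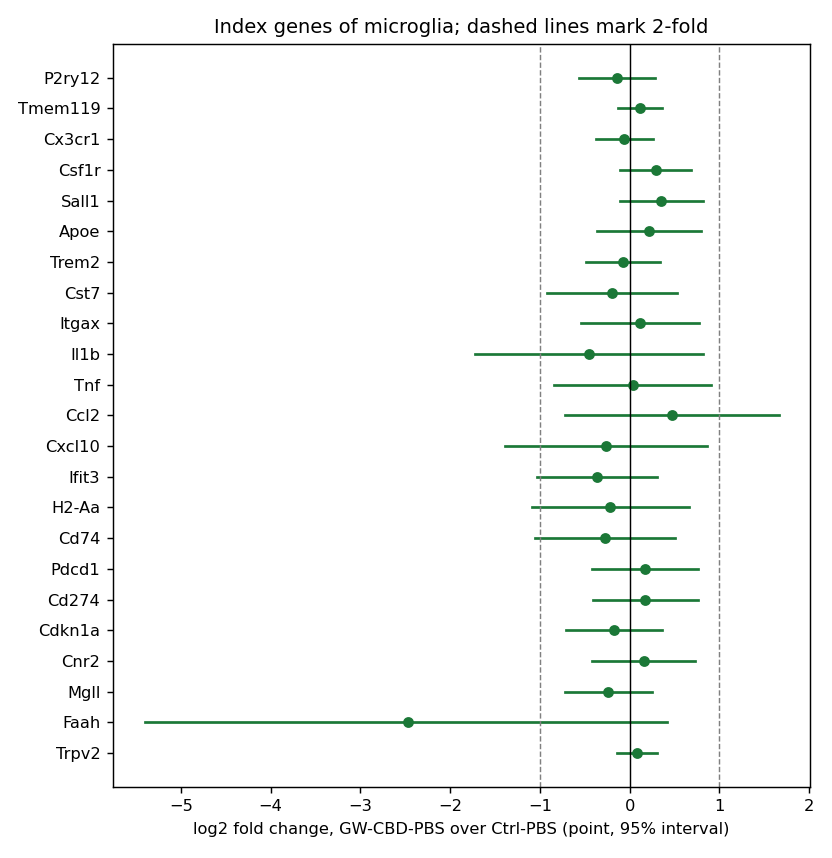
Log2 fold change of 23 index genes in GW-CBD-PBS over Ctrl-PBS, 1 gene a line, with the point estimate of edgeR and its 95% interval (n = 3 and 4 libraries); dashed lines mark 2-fold lower and higher. Resting-state genes such as Tmem119 (-0.13 to 0.36) have short intervals around 0, while Il1b (-1.72 to 0.82) and Faah (-5.40 to 0.41) reach past 2-fold.

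The genes that mark resting microglia had a median difference near 0 between treated exposed and control cells. Of the 24 homeostatic genes 11 had a higher and 13 a lower estimate, none passed the test, and for 23 of the 24 the 95% interval lay within 2-fold. Among all tested genes averaging over 100 CPM that share was 94.98%, so the count is about that of other genes with high levels. Their median log2 fold change was -0.02, where all tested genes had a median of -0.03 and 46.5% had a higher estimate. In GW-PBS over Ctrl-PBS the same list had a median of 0.004, with 24 of 24 intervals within 2-fold. A median near 0 was therefore not particular to the CBD-treated cells. P2ry12, the ADP receptor that guides microglial processes (GRCm38, ENSMUSG00000036353, chromosome 3, 59216272 to 59262871), read 4907, 5594 and 5518 CPM in GW-CBD-PBS, against 6565, 6672, 4582 and 5688 CPM in Ctrl-PBS. The 3 treated libraries fell inside the range of the controls, and the log2 fold change was -0.14 ± 0.20 (SE), with an interval of -0.56 to 0.29. Tmem119, a membrane protein specific to microglia within the brain, read 6447, 6868 and 6543 CPM in GW-CBD-PBS and 7027, 5869, 5280.4 and 6212 CPM in Ctrl-PBS. The groups overlapped, and the interval of -0.13 to 0.36 bounds any difference to well under 2-fold.

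The fractalkine receptor gene Cx3cr1, which receives a signal from neurons, read 3998, 3651 and 4274 CPM in GW-CBD-PBS, against 4782, 3971, 3484 and 4328 CPM in Ctrl-PBS (log2 fold change -0.06 ± 0.15). Csf1r, the receptor on which microglial survival depends, read 12436, 11264 and 12064 CPM in GW-CBD-PBS and 11148, 7529, 8925 and 11372 CPM in Ctrl-PBS (log2 fold change 0.29 ± 0.19). Its treated libraries lay around and above the highest controls, with an overlap at 11264 and 11372 CPM. Sall1, a transcription factor that maintains microglial identity, averaged 444 ± 64.6 CPM in GW-CBD-PBS and 348 ± 49.5 CPM in Ctrl-PBS (SD, n = 3 and 4), also with overlap. Over all genes the libraries of the groups did not overlap for 960 (5.8%) with the higher values in GW-CBD-PBS and for 1041 (6.29%) with the lower values there. In the homeostatic list these counts were 1 and 1 of 24.

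Genes of the disease-associated state, the phagocytic and lipid-handling programme, were also near control levels. Of 26 members 14 had a higher and 12 a lower estimate in GW-CBD-PBS than in Ctrl-PBS, none passed, and the median log2 fold change was 0.04. The same 26 genes had a median of 0.53 in GW-PBS over Ctrl-PBS, with all 26 estimates higher, and of -0.57 in GW-CBD-PBS over GW-PBS, with all 26 lower. These comparisons share libraries, none of the 26 passed edgeR's test in either, and the 3 medians are given side by side only. The outcome depended on the tool. In GW-CBD-PBS against GW-PBS, limma voom with quality weights called 217 of 16554 genes, among them Apoe, B2m, Tyrobp, Cd63 and Spp1 of this list. In GW-PBS against Ctrl-PBS it called 0. Cst7, a cathepsin inhibitor that is among the first genes of this state, read 38.8, 63.5 and 40.2 CPM in GW-CBD-PBS, 151, 73.3, 184 and 61.997 CPM in GW-PBS and 52.4, 47.03, 64.8 and 53.4 CPM in Ctrl-PBS. The treated and control ranges overlapped, and GW-PBS replicates 1, 2 and 3 lay above both. The log2 fold change of Cst7 was -0.20 ± 0.35 against Ctrl-PBS, with an interval of -0.92 to 0.52.

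Apoe, the lipid carrier that leads the same state, read 6726, 12064 and 6108 CPM in GW-CBD-PBS, 12449.6, 9510.4, 18517 and 7769 CPM in GW-PBS and 6832, 6549, 7742 and 7560.2 CPM in Ctrl-PBS. Treated replicate 3 lay above the narrow control range and the other treated libraries in or just under it, and the log2 fold change against Ctrl-PBS was 0.21 ± 0.28. Trem2, the lipid-sensing receptor of this programme, averaged 2048 ± 197 CPM in GW-CBD-PBS and 2159 ± 227 CPM in Ctrl-PBS (SD, n = 3 and 4). Spp1, which encodes osteopontin, read 370.4, 746 and 385 CPM in GW-CBD-PBS and 479, 182, 588 and 483 CPM in Ctrl-PBS, and in GW-PBS replicate 3 it read 2025 CPM. Itgax, the integrin CD11c, differed by 0.12 ± 0.32 on the log2 scale, and Lyz2, a lysozyme that neutrophils also express, by -0.59 ± 0.37. Lyz2 stood at 6268 CPM in Ctrl-PBS replicate 3, the library with neutrophil genes, and its estimate without that library was 0.08. Without GW-CBD-PBS replicate 3 the median of the list was -0.17. The list's intervals were wider than those of the homeostatic genes, with 18 of 26 within 2-fold.

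**Figure D2:**
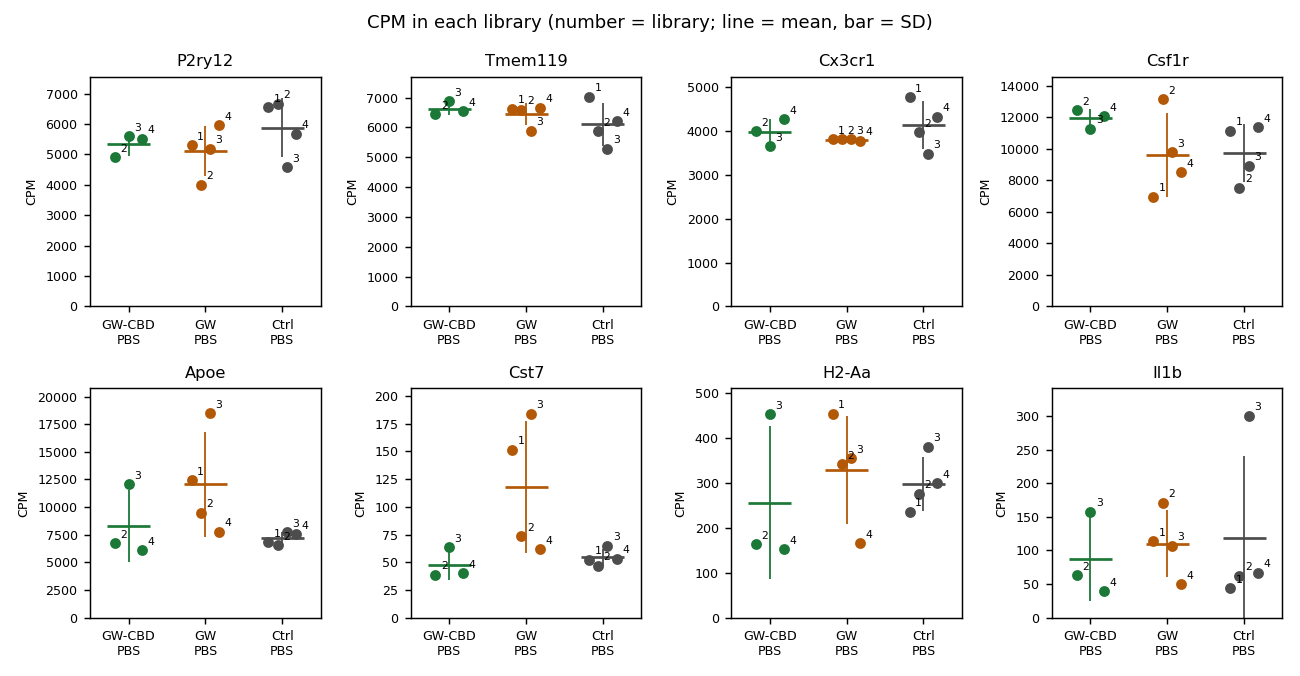
CPM of 8 genes in each library, with GW-CBD-PBS, GW-PBS and Ctrl-PBS from left to right; numbers are library numbers, the line is the group mean and the bar its SD (n = 3, 4 and 4). The top panels show resting-state genes with overlapping groups, and the bottom panels show Apoe and Cst7 highest in GW-PBS replicate 3, H2-Aa higher in GW-CBD-PBS replicate 3 than in the other treated libraries, and Il1b highest in Ctrl-PBS replicate 3.

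Inflammatory mediators showed wide intervals and no call. Of 36 cytokine, chemokine and NF-kB genes tested, of 38 listed, 21 had a higher and 15 a lower estimate in GW-CBD-PBS, with a median of 0.05 and 18 of 36 intervals within 2-fold. Without Ctrl-PBS replicate 3 the median was 0.22, and without GW-CBD-PBS replicate 3 it was -0.30. Il1b, the precursor of interleukin-1 beta, read 63.1, 158 and 39.5 CPM in GW-CBD-PBS and 43.8, 62.4, 300.4 and 66.9 CPM in Ctrl-PBS (log2 fold change -0.45 ± 0.61, and 0.60 without Ctrl-PBS replicate 3). Each group had 1 library well above the rest, replicate 3 in both. Tnf read 38.4, 71.2 and 32.9 CPM in GW-CBD-PBS, against 38.1, 36.2, 73.7 and 37.2 CPM in Ctrl-PBS (log2 fold change 0.04 ± 0.42, and 0.36 without that control), again with replicate 3 high on both sides. The chemokine Ccl2, which attracts monocytes, spread from 10.2 to 55.03 CPM in GW-CBD-PBS and from 15.8 to 26.8 CPM in Ctrl-PBS. Cxcl2, a chemokine for neutrophils, had the smallest p of the list (0.0541, edgeR, unadjusted), and its estimate of -1.83 ± 0.90 was -0.34 without Ctrl-PBS replicate 3, where it read 53.2 CPM.

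Interferon response genes were on the lower side in treated exposed cells. Of the 40 members 33 had a lower and 7 a higher estimate, the median was -0.28, and 7 members had all treated libraries under all controls, against 1 the other way, beside 6.29% and 5.8% of all genes. None passed the test, 22 of 40 intervals lay within 2-fold, and the median without Ctrl-PBS replicate 3 was -0.19. The summed CPM of the list was 967, 961 and 945 in GW-CBD-PBS, against 1290.3, 1102, 1217 and 1071 in Ctrl-PBS. Every treated sum lay under every control sum, and the GW-PBS sums ran from 1055 to 1316 CPM. Ifitm3, a membrane protein that hinders virus entry, read 42.6, 64.2 and 42.4 CPM in GW-CBD-PBS, 161, 109.7, 98.4 and 81.9 CPM in GW-PBS and 98.8, 99.2, 186 and 70.02 CPM in Ctrl-PBS. Its treated libraries lay under all libraries of both other groups (log2 fold change against Ctrl-PBS -1.19 ± 0.46, edgeR adjusted p = 0.822).

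Ifi27l2a, a gene induced by interferon, read 16.1, 20.999 and 17.3 CPM in GW-CBD-PBS and 37.4, 28.9, 35.5 and 26.005 CPM in Ctrl-PBS, without overlap (log2 fold change -0.82 ± 0.38). Isg15, a ubiquitin-like modifier, read 4.54, 6.94 and 5.44 CPM in GW-CBD-PBS and 9.59, 8.31, 8.45 and 7.33 CPM in Ctrl-PBS, also without overlap (-0.58 ± 0.38). Ifit3, a cytosolic RNA-binding effector, averaged 32.01 ± 6.03 CPM in GW-CBD-PBS and 41.2 ± 8.76 CPM in Ctrl-PBS (SD, n = 3 and 4), a log2 fold change of -0.36 ± 0.32. The chemokine Cxcl10 differed by -0.27 ± 0.54, with an interval of -1.39 to 0.86.

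Antigen presentation genes had medians of -0.15 (class I and immunoproteasome, 19 genes, 5 higher and 14 lower) and -0.15 (class II, 12 genes, 3 higher and 9 lower). MHC genes share reads with close relatives, so values of single genes are uncertain. In 4 of the 19 class I members every treated library lay under all controls and in 0 above them, beside 6.29% and 5.8% of all genes. Among the 4 was B2m, the class I light chain, with 1780.0, 2237 and 2012 CPM in GW-CBD-PBS and 2567, 3237, 2378 and 2409.7 CPM in Ctrl-PBS (log2 fold change -0.40 ± 0.28). H2-T23, a non-classical class I gene, read 316, 332 and 364 CPM in GW-CBD-PBS, against 407, 405, 415 and 407 CPM in Ctrl-PBS. The control values were nearly identical to each other, and the difference of -0.28 ± 0.16 still had an interval of -0.62 to 0.06. H2-Aa, a class II chain, read 164, 452 and 153 CPM in GW-CBD-PBS and 236, 276, 380.1 and 299 CPM in Ctrl-PBS, with treated replicate 3 above all controls and replicates 2 and 4 under them. Cd74, the class II invariant chain, had the same order, with 868, 2134 and 825 CPM in GW-CBD-PBS and 1210.2, 1578, 1931 and 1466 CPM in Ctrl-PBS.

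Complement genes had a median of -0.10 over 17 genes (7 higher, 10 lower), and 0.03 without Ctrl-PBS replicate 3. C1qa, a chain of the initiating C1q complex that microglia supply to the brain, averaged 5107 ± 453 CPM in GW-CBD-PBS and 5677 ± 714 CPM in Ctrl-PBS (SD, n = 3 and 4). Cd59a, an inhibitor of the membrane attack complex, read 0.0716, 0.624 and 0.376 CPM in GW-CBD-PBS, against 0.822, 2.78, 2.45 and 0.867 CPM in Ctrl-PBS, too few reads for a narrow interval (-3.80 to -0.77). Checkpoint and inhibitory receptor genes had a median of -0.01 over 20 genes (9 higher, 11 lower). Pdcd1, which encodes PD-1, read 43.7, 40.7 and 49.7 CPM in GW-CBD-PBS, 71.8, 59.1, 69.2 and 31.1 CPM in GW-PBS and 41.4, 36.8, 36.4 and 43.98 CPM in Ctrl-PBS. Treated and control libraries overlapped (0.17 ± 0.28 on the log2 scale), while 3 of the 4 GW-PBS libraries lay above both. Its ligand gene Cd274 differed by 0.18 ± 0.28, and Clec4a2, a lectin-type inhibitory receptor, by -0.50 ± 0.23 without overlap of the groups.

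Genes of protein synthesis and respiration lay lower together. Of 79 cytosolic ribosomal protein genes 76 had a lower and 3 a higher estimate in GW-CBD-PBS, with a median of -0.42 on the log2 scale. For 33 of the 79 all treated libraries lay under all controls, and for none above them, beside 6.29% and 5.8% of all genes. None passed the test, and 30 of 79 intervals lay within 2-fold. Of 49 nuclear genes of oxidative phosphorylation, out of 50 listed, 47 had a lower and 2 a higher estimate, with a median of -0.40, and 28 of the 49 had all treated libraries under all controls. Without Ctrl-PBS replicate 3 the medians were -0.37 for the ribosomal and -0.38 for the respiratory genes. The genes within each list vary together between libraries, so the counts of members are not independent evidence.

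Ribosomal protein genes summed to 4567, 5543 and 4909 CPM in GW-CBD-PBS, against 5414, 7266, 6662 and 6078 CPM in Ctrl-PBS. Treated replicate 3 lay just above the lowest control, so these sums overlapped. In GW-PBS they read 11169, 5574, 6881 and 6908 CPM. Oxidative phosphorylation genes summed to 4810.3, 5394 and 5089.9 CPM in GW-CBD-PBS and 5644, 6582, 6026 and 5730.2 CPM in Ctrl-PBS, where every treated sum was under every control sum. The 10 mitochondrially encoded genes tested, of 13 listed, had 9 lower estimates and a median of -0.27.

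Among single respiratory genes, Ndufa1, a small subunit of complex I, read 19.7, 30.2 and 27.7 CPM in GW-CBD-PBS and 36.5, 52.4, 48.2 and 40.2 CPM in Ctrl-PBS (log2 fold change -0.78 ± 0.32, edgeR adjusted p = 0.822). Cox6c, a small subunit of complex IV, read 30.8, 35.6 and 34.5 CPM in GW-CBD-PBS and 42.9, 57.8, 54.9 and 41.5 CPM in Ctrl-PBS, also without overlap. Some members differed little or lay higher. Atp5a1, a subunit of ATP synthase, averaged 508 ± 23.1 CPM in GW-CBD-PBS and 513 ± 7.55 CPM in Ctrl-PBS (SD, n = 3 and 4), a log2 fold change of -0.01 ± 0.11. Sdha, of complex II, averaged 362 ± 20.6 CPM in GW-CBD-PBS and 344 ± 36.3 CPM in Ctrl-PBS (SD, n = 3 and 4), a log2 fold change of 0.07 ± 0.11.

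Ribosomal protein messages of mammals typically start with a pyrimidine stretch at the transcription start, through which growth signals control their translation. To show the genes behind the pattern, the start regions of the 4 ribosomal protein genes with the smallest p that RefSeq's promoter table (GRCm38.p6) holds are printed here, from 20 bases before to 10 after the annotated start, on the gene's strand. Capitals mark the pyrimidine word CTTTC where it occurs.
Rps12, chr10:23787200-23787229, minus strand: ttaaataccgtcatgcggccaccgccggcc
Rpl38, chr11:114668560-114668589, plus strand: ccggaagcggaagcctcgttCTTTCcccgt
Rps27, chr3:90213639-90213668, minus strand: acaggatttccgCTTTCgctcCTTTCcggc
Rps26, chr10:128626497-128626526, minus strand: agcgggtcgggcaagccgccggatcctctt

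Rps12 read 5.85, 1.72 and 1.88 CPM in GW-CBD-PBS and 6.43, 10.6, 9.29 and 7.77 CPM in Ctrl-PBS (log2 fold change -1.43 ± 0.52), and Rpl38 read 5.87, 7.14 and 5.67 CPM in GW-CBD-PBS and 10.7, 14.4, 14.02 and 14.04 CPM in Ctrl-PBS (-1.09 ± 0.40). Rps27 differed by -0.68 ± 0.31 and Rps26 by -0.82 ± 0.38, and in all 4 genes the treated libraries lay under the controls. The word was present in 2 of the 4 windows. On the gene's strand it occurred in 14 of the 58 ribosomal protein genes that the table holds (24.1%), against 1325 of 26967 other genes (4.91%). With the opposite strand counted too (GAAAG), it was 16 of 58 (27.6%) against 2371 of 26967 (8.79%). A match describes the letters of the window only, and the table's start may not be the start used in microglia. Ribosomal protein genes also have many near-identical pseudogenes, and the CPM of single members are uncertain because the handling of reads that match several copies is not given in the sources used here.

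**Figure D3:**
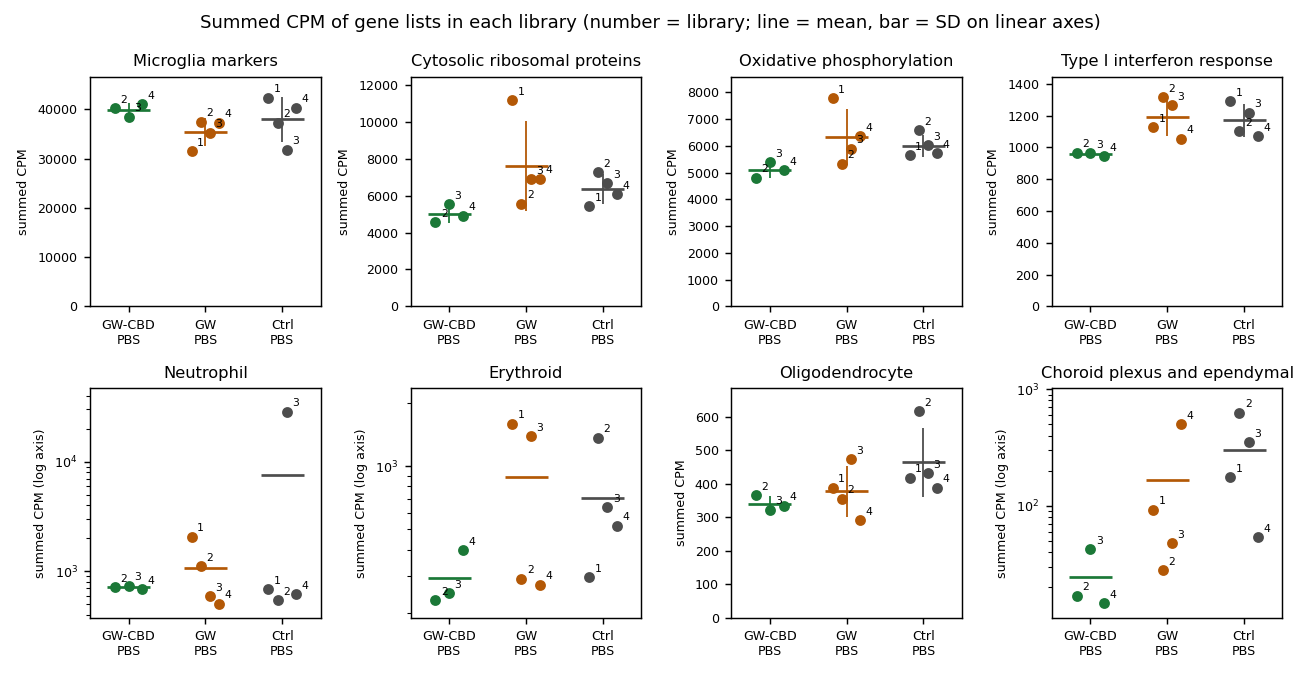
Summed CPM of gene lists in each library, GW-CBD-PBS, GW-PBS and Ctrl-PBS from left to right, with library numbers, group means (lines) and, on linear axes, SD (bars; n = 3, 4 and 4). Interferon and respiratory sums of the 3 treated libraries lie under all 4 controls, the neutrophil sum (log axis) reaches 28512 CPM in Ctrl-PBS replicate 3, and choroid plexus sums (log axis) lie between 14.6 and 42.5 CPM in treated libraries.

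By rule the 15 genes with the smallest p were taken from those whose higher group averaged 5 CPM or more, and 14 of the 15 were lower in GW-CBD-PBS. In all 15 the libraries of the groups did not overlap, beside 5.8% (higher) and 6.29% (lower) of all genes. A choice by small p in the same comparison favours such genes, so this is no separate evidence. For 14 of the 15 edgeR's adjusted p was 0.809 or 0.822. Ndrg1, a stress and hypoxia response gene that myelinating cells express strongly (GRCm38, ENSMUSG00000005125, chromosome 15, 66929318 to 66969640), read 3.53, 3.12 and 2.26 CPM in GW-CBD-PBS, 4.68, 4.82, 5.40 and 3.02 CPM in GW-PBS and 4.45, 11.8, 16.8 and 13.03 CPM in Ctrl-PBS. Ctrl-PBS replicate 1 lay close to the treated libraries and the other controls far above them. The log2 fold change was -1.95 ± 0.35 (edgeR adjusted p = 0.306), and without Ctrl-PBS replicate 1 it was -2.22 with an edgeR adjusted p of 0.00388, the only call of edgeR in any leave-one-out fit of this comparison. Over all alternatives its adjusted p spanned 7.13e-05 (DESeq2) to 0.999 (edgeR without GW-CBD-PBS replicate 2).

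Clu, the secreted chaperone clusterin that astrocytes and choroid plexus make in quantity (GRCm38, ENSMUSG00000022037, chromosome 14, 65968483 to 65981547), read 11.3, 12.1 and 6.28 CPM in GW-CBD-PBS, 17.3, 10.9, 21.01 and 26.6 CPM in GW-PBS and 25.95, 57.9, 43.3 and 45.7 CPM in Ctrl-PBS. Every treated library lay under every control, and the GW-PBS libraries overlapped with both (log2 fold change against Ctrl-PBS -2.13 ± 0.46). Ptgds, a prostaglandin D synthase of meninges, choroid plexus and oligodendrocytes, read 5.54, 9.86 and 9.29 CPM in GW-CBD-PBS and 13.1, 38.5, 15.4 and 165 CPM in Ctrl-PBS. Its log2 fold change of -2.82 ± 0.70 was -1.44 without Ctrl-PBS replicate 4, the library with the highest value. Car2, a carbonic anhydrase of oligodendrocytes and red cells, read 6.11, 4.77 and 4.37 CPM in GW-CBD-PBS and 11.4, 22.8, 26.7 and 9.40 CPM in Ctrl-PBS (-1.79 ± 0.46).

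Other genes of this rank with lower values included the astrocytic glutamate transporter Slc1a2 (-1.49 ± 0.40), the neuronal phosphatase regulator Ppp1r1b (-1.89 ± 0.49), the prohormone-processing enzyme Cpe (-1.27 ± 0.35), the membrane glycoprotein Gpm6b (-1.29 ± 0.36), the growth factor Ptn (-1.72 ± 0.49) and Enpp5 (-0.79 ± 0.21), each a log2 fold change with its SE. The protease inhibitor Spint2 averaged 0.771 ± 0.177 CPM in GW-CBD-PBS and 7.14 ± 5.40 CPM in Ctrl-PBS (SD, n = 3 and 4), and Pcp4l1 averaged 1.30 ± 0.844 CPM in GW-CBD-PBS and 5.54 ± 4.003 CPM in Ctrl-PBS. Lbp, a carrier of bacterial LPS, rested on 1 control, with 0.143, 0.350 and 0.0868 CPM in GW-CBD-PBS and 0.487, 2.36, 21.2 and 2.46 CPM in Ctrl-PBS, and its log2 fold change of -5.06 ± 1.42 was -3.15 without that library. Aqp1, a water channel of choroid plexus that both alternative tools called, had 0 counts in all 3 GW-CBD-PBS libraries, which allows up to 0.0742 to 0.0906 CPM a library (3 counts, counting error only), against 1.31, 1.64, 2.88 and 1.06 CPM in Ctrl-PBS.

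Markers of other brain cells also had mostly lower estimates, except those of border-associated macrophages. Of these 8 markers 6 had higher and 2 lower estimates, with a median of 0.15 (-0.24 without GW-CBD-PBS replicate 3). Their sums overlapped, from 240 to 464 CPM in GW-CBD-PBS and from 267 to 343 CPM in Ctrl-PBS. All 8 oligodendrocyte markers tested had lower estimates in GW-CBD-PBS, with sums of 365, 323 and 334 CPM against 418, 617, 431 and 388 CPM in Ctrl-PBS and no overlap. All 6 choroid plexus and ependymal markers had lower estimates, with sums of 16.95, 42.5 and 14.6 CPM in GW-CBD-PBS, against 175, 629.7, 351 and 53.9 CPM in Ctrl-PBS. Ttr, the thyroxine carrier secreted by choroid plexus, made most of that sum, with 13.9, 37.1 and 12.7 CPM in GW-CBD-PBS and 165, 592, 331 and 47.96 CPM in Ctrl-PBS. Of the 8 astrocyte markers 6 had lower estimates, yet their sums overlapped, from 187 to 204 CPM in GW-CBD-PBS and from 178 to 208 CPM in Ctrl-PBS. All 8 erythroid markers had lower estimates, with sums of 229.7 to 399 CPM in GW-CBD-PBS and 296 to 1365 CPM in Ctrl-PBS, and haemoglobin genes are near-identical copies whose reads may be split. Of the 8 endothelial and mural markers 6 had lower estimates (8 with size factors of the DESeq2 type), and the sums ran from 29.2 to 43.6 CPM in GW-CBD-PBS and from 40.2 to 71.99 CPM in Ctrl-PBS. Neuron markers summed to less than 6 CPM in each of the 7 libraries. The part of such RNA in the lower values of Ndrg1, Clu, Ptgds, Car2 and the others was not tested.

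**Figure D4:**
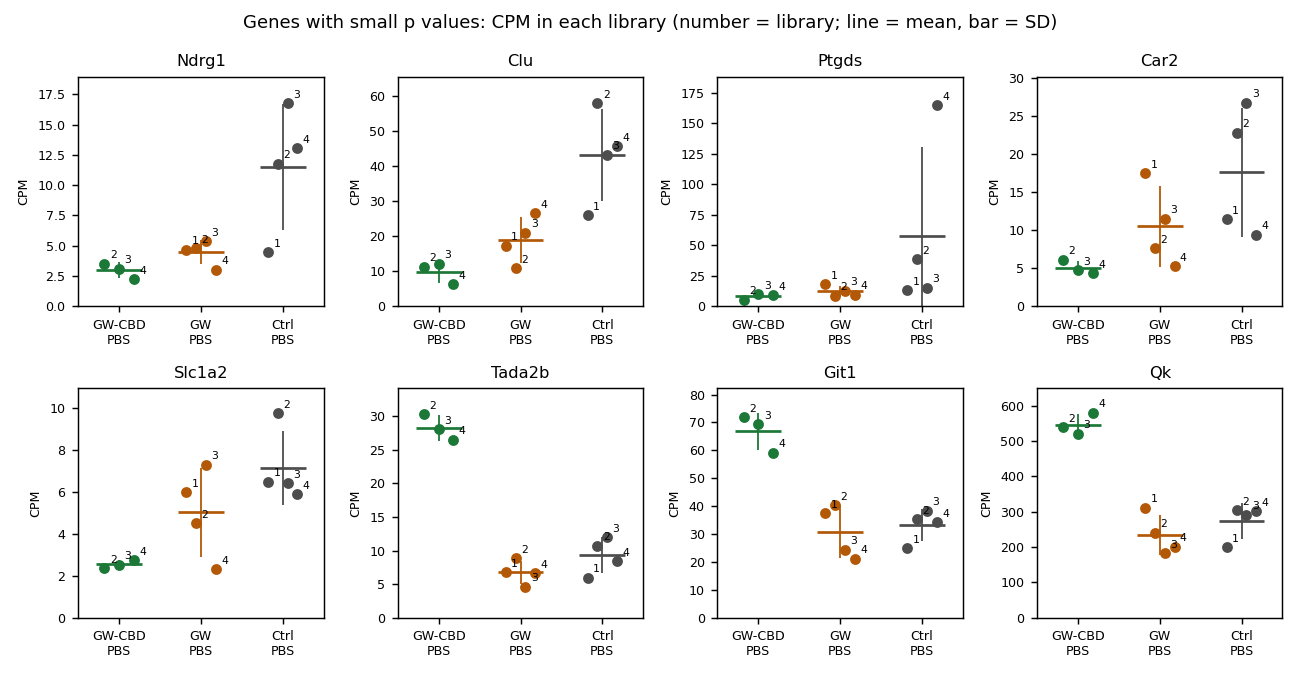
CPM of 8 genes with small p values in each library, GW-CBD-PBS, GW-PBS and Ctrl-PBS from left to right, with library numbers, group means (lines) and SD (bars; n = 3, 4 and 4). Ndrg1, Clu, Ptgds, Car2 and Slc1a2 are lower in every treated library than in every control, and Tada2b, Git1 and Qk are higher in every treated library than in every library of both other groups.

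Tada2b, an adaptor subunit of the SAGA histone acetyltransferase complex (GRCm38, ENSMUSG00000029196, chromosome 5, 36473670 to 36484285), was the only higher gene among the 15 with the smallest p. It read 30.3, 28.04 and 26.5 CPM in GW-CBD-PBS, 6.81, 8.90, 4.62 and 6.64 CPM in GW-PBS and 5.94, 10.7, 12.03 and 8.39 CPM in Ctrl-PBS. The treated values were close together and above every value of both other groups, which overlapped (log2 fold change against Ctrl-PBS 1.61 ± 0.46, interval 0.65 to 2.57, edgeR adjusted p = 0.822). The other higher genes named here were chosen after their values were seen, as those next in p among higher genes that meet the same rule. Qk, the RNA-binding protein Quaking that governs splicing in glia and macrophages, read 538, 520.1 and 580.0 CPM in GW-CBD-PBS, 311, 240.3, 183 and 201 CPM in GW-PBS and 199, 303, 292 and 300.5 CPM in Ctrl-PBS (log2 fold change 1.00 ± 0.31 against Ctrl-PBS). Khdrbs3, an RNA-binding splicing regulator of the same STAR family, read 69.5, 115 and 57.3 CPM in GW-CBD-PBS, 33.01, 11.1, 7.36 and 10.9 CPM in GW-PBS and 12.7, 25.97, 25.4 and 19.8 CPM in Ctrl-PBS (1.94 ± 0.60).

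Git1, a scaffold of ARF GTPase signalling and the cytoskeleton, read 71.8, 69.3 and 59.2 CPM in GW-CBD-PBS, 37.5, 40.4, 24.3 and 21.2 CPM in GW-PBS and 25.01, 35.3, 38.4 and 34.2 CPM in Ctrl-PBS (1.01 ± 0.29). Chsy1, a chondroitin sulphate synthase, differed by 0.86 ± 0.26 and Brd1, a bromodomain scaffold of a histone acetyltransferase, by 0.99 ± 0.31. In both, as in Tada2b, Qk, Khdrbs3 and Git1, every treated library lay above every library of GW-PBS and of Ctrl-PBS. Against Ctrl-PBS, limma voom called Tada2b, Qk, Git1 and Chsy1, but not Khdrbs3 or Brd1. Neither edgeR nor DESeq2 called any of these genes in that comparison. Plaa, a ubiquitin-binding protein, Kdelc2, a glycosyltransferase of the endoplasmic reticulum, and Zbtb8a, a zinc finger protein, differed by 0.42 ± 0.12, 0.59 ± 0.17 and 0.55 ± 0.17.

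Immediate early genes, which are induced within minutes by stimulation or by tissue handling, had a median of 0.23 over 25 members, 19 higher and 6 lower. Without GW-CBD-PBS replicate 3 the median was -0.01, and without Ctrl-PBS replicate 3 it was 0.45. Their sums were 11675, 16145 and 8566 CPM in GW-CBD-PBS and 7218, 9472, 13092 and 9566 CPM in Ctrl-PBS, so each group had replicate 3 highest. Fos read 1551, 3009.9 and 1259 CPM in GW-CBD-PBS and 955, 1405, 2213 and 1446 CPM in Ctrl-PBS. Egr2, a zinc finger factor of macrophage activation, read 40.6, 84.7 and 26.9 CPM in GW-CBD-PBS and 24.4, 30.2, 27.1 and 26.6 CPM in Ctrl-PBS (0.91 ± 0.36), and 0.32 on the log2 scale without GW-CBD-PBS replicate 3.

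TGF-beta pathway genes, through which microglia keep their resting state, had a median of 0.14 over 20 members, 13 higher and 7 lower, with 16 of 20 intervals within 2-fold. Smad7, the inhibitory SMAD that the pathway induces, read 67.6, 55.3 and 57.5 CPM in GW-CBD-PBS and 46.9, 39.2, 47.1 and 48.7 CPM in Ctrl-PBS, without overlap (log2 fold change 0.40 ± 0.17, edgeR adjusted p = 0.822). The receptor gene Tgfbr1 differed by 0.21 ± 0.25 and Tgfbr2 by 0.32 ± 0.25, both with overlap.

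Genes that CBD and the body's own cannabinoids act through or are broken down by lay near control levels. Of the 17 tested of 21 listed, 6 had a higher and 11 a lower estimate, with a median of -0.09, and 11 intervals lay within 2-fold. Without Ctrl-PBS replicate 3 the median was 0.01. Cnr2, the cannabinoid receptor of immune cells, read 43.4, 37.9 and 46.5 CPM in GW-CBD-PBS and 41.8, 27.97, 42.4 and 40.9 CPM in Ctrl-PBS (0.15 ± 0.28). Trpv2, an ion channel that CBD opens, read 158, 163 and 159 CPM in GW-CBD-PBS and 165, 139, 145 and 157 CPM in Ctrl-PBS, with an interval of -0.14 to 0.30. Mgll, which hydrolyses 2-arachidonoylglycerol, differed by -0.24 ± 0.23 with overlap. Faah, which hydrolyses anandamide, was barely expressed, with 0.0716, 0.150 and 0.202 CPM in GW-CBD-PBS and 0.396, 1.25, 1.13 and 0.391 CPM in Ctrl-PBS, and its estimate of -2.46 ± 1.40 had an interval of -5.40 to 0.41.

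Lysosome and phagocytosis genes had a median of 0.02 over 38 members, 24 higher and 14 lower, and 34 of the 38 intervals lay within 2-fold. Fcgr4, an activating antibody receptor, had the smallest p among them, with 20.4, 25.99 and 22.3 CPM in GW-CBD-PBS, 44.6, 48.4, 33.4 and 34.6 CPM in GW-PBS and 30.1, 35.7, 39.9 and 26.9 CPM in Ctrl-PBS. Its treated libraries were under all others, with a log2 fold change of -0.53 ± 0.29 against Ctrl-PBS. Cholesterol synthesis and uptake genes had a median of -0.07 over 21 members (10 higher, 11 lower), and 0.01 without Ctrl-PBS replicate 3. The synthesis enzyme Sqle was at -0.50 ± 0.27. Lipid efflux and droplet genes had a median of -0.07 over 21 (9 higher, 12 lower), and 0.09 without Ctrl-PBS replicate 3. The triglyceride-forming enzyme Dgat1, the member with the smallest p, was -0.53 ± 0.21 with and -0.17 without Ctrl-PBS replicate 3.

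Heat shock chaperones had a median of 0.03 over 20 (11 higher, 9 lower) with the small chaperone Hspb1 at -0.95 ± 0.56, and genes of the unfolded protein and integrated stress response had a median of -0.04 over 21 (9 higher, 12 lower). In that stress response Ppp1r15a, which restores translation after stress, was 0.57 ± 0.26 and overlapped between groups. Nrf2-linked antioxidant and metallothionein genes had a median of -0.30 over 23, 6 higher and 17 lower, and -0.11 without Ctrl-PBS replicate 3. Its member with the smallest p, the peroxide-reducing enzyme Prdx6, read 38.2, 50.9 and 43.02 CPM in GW-CBD-PBS and 58.2, 64.8, 139 and 51.3 CPM in Ctrl-PBS, and its log2 fold change of -0.83 ± 0.30 was -0.39 without Ctrl-PBS replicate 3.

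Senescence and p53 target genes had a median of -0.13 over 22 (8 higher, 14 lower). Cdkn1a, the cell cycle inhibitor p21, read 18.1, 29.7 and 16.9 CPM in GW-CBD-PBS, 37.7, 31.6, 35.4 and 20.97 CPM in GW-PBS and 23.3, 25.9, 26.7 and 21.8 CPM in Ctrl-PBS, with overlap of treated and control libraries (-0.18 ± 0.26). Cell cycle genes had the lowest median of the pathway lists, -0.91 over 36 with 34 lower, and this rested on Ctrl-PBS replicate 3. Without it the median was 0.07, with 23 higher and 13 lower. Ube2c, a ubiquitin-conjugating enzyme of mitosis, read 1.17, 1.27 and 1.19 CPM in GW-CBD-PBS, against 2.92, 1.25, 20.4 and 1.43 CPM in Ctrl-PBS.

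Glycolysis and hypoxia genes had a median of -0.12 over 23 (6 higher, 17 lower), and 0.08 without Ctrl-PBS replicate 3. Glucocorticoid targets had a median of -0.06 over 18 (8 higher, 10 lower), and 0.05 without Ctrl-PBS replicate 3. Sgk1, a kinase that glucocorticoids induce, read 837, 1065 and 719 CPM in GW-CBD-PBS, 946, 799.9, 767 and 754 CPM in GW-PBS and 678, 633, 636 and 638 CPM in Ctrl-PBS. Both exposed groups lay above all controls, with log2 fold changes against Ctrl-PBS of 0.43 ± 0.17 for GW-CBD-PBS and 0.34 ± 0.16 for GW-PBS, neither past the threshold in edgeR. Circadian clock genes had a median of 0.06 over 17 (9 higher, 8 lower), and the repressor Cry2 was higher in each treated library than in each control (13.4, 13.2 and 14.2 CPM in GW-CBD-PBS, 11.8, 8.23, 8.48 and 8.98 CPM in Ctrl-PBS).

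**Figure D5:**
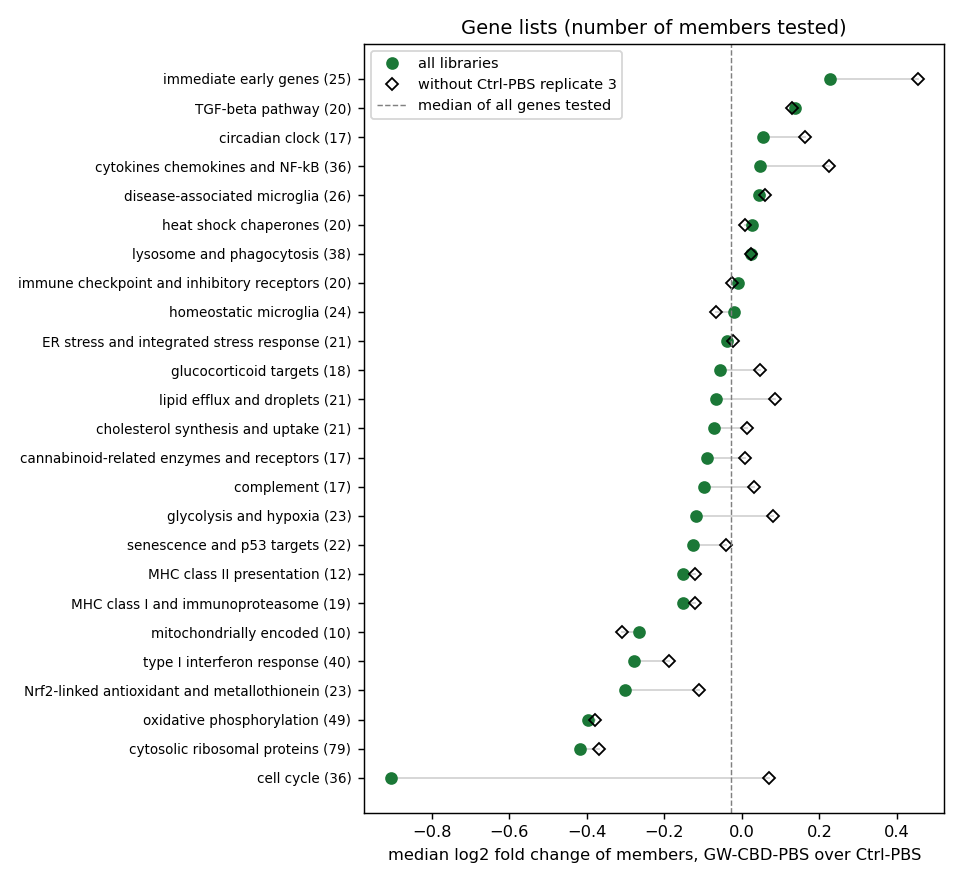
Median log2 fold change of 25 gene lists in GW-CBD-PBS over Ctrl-PBS, with all libraries (filled circles) and without Ctrl-PBS replicate 3 (open diamonds); the dashed line is the median of all tested genes, and numbers in brackets are members tested. Ribosomal and respiratory lists lie near -0.42 and -0.40 with all libraries and stay well under the dashed line without that control. The cell cycle list lies at -0.91 with all libraries and 0.07 without that control.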

How the data were processed

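The authors deposited 1 table of whole-number counts of reads per gene for 54532 genes, 1 column per library. The submitters' processing notes name the build GRCm38 (mm10). Not given in the sources used here are the aligner, the counter, how it treated strand and which annotation it used, and therefore genes that overlap, lie antisense or have close copies hold uncertain shares of reads. Per the labels' protocols, RNA of integrity number 8.5 or above went into stranded poly(A) libraries, sequenced as 150 bp read pairs. Groups and library numbers came from the sample labels. Of the symbols 27 read as dates, and their names were taken back from the gene identifiers, and 54495 identifiers were found in GENCODE M21, the source of coordinates.

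Tests used edgeR 4.0.16 in R 4.3.3 (quasi-likelihood, two-sided, TMM factors, filterByExpr, Benjamini-Hochberg adjusted p under 0.05) with all 22 libraries in 1 fit of 6 group means. An adjusted p with no other tool named is from this test, and so is the standard error behind each 95% interval. No gene passed, so the text names the 15 genes with the smallest p whose higher group averaged 5 CPM or more, the member of each list with the smallest p, and 24 index genes. Others were chosen after their values were seen, and some genes that the rule gives are not reported here. The comparison, gene lists and rules were chosen with earlier results of these data known. Distances used log2 CPM with a prior count of 2. Alternatives were DESeq2 1.42.0, limma 3.58.1 (voom with quality weights), other size factors, no filter, compared groups alone, a replicate block, and libraries left out. The tests were tried on simulated counts, and figures used matplotlib 3.10.9.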

Additional observations from a re-analysis of the deposited data

Results flagged for a closer look

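In 29 of 204 checks of groups of 4 libraries, over named genes and list sums, the highest or lowest library lay far from the other 3 by Dixon's criterion, where chance gives about 10. GW-CBD-PBS, with 3 libraries, was not checked. Genes of a list vary together, so the 29 are not independent.

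Ctrl-PBS replicate 3 accounted for 13 of them, each a highest value. The summed CPM were 28512 for neutrophil markers, 383 for markers of monocytes and lymphocytes, and 4736 for glycolysis and hypoxia genes. Single genes there were Fcnb at 153 CPM, Nkg7 at 22.9 CPM, Lbp at 21.2 CPM, Ube2c at 20.4 CPM, Lyz2 at 6268 CPM and Prdx6 at 139 CPM. Dgat1 stood at 105 CPM, and the mediators Il1b, Tnf and Cxcl2 at 300.4, 73.7 and 53.2 CPM.

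Ctrl-PBS replicate 2 was highest in Slc1a2 (9.76 CPM), Ly6c1 (16.2 CPM) and the sum of endothelial and mural markers (72.0 CPM), and lowest in Cnr2 (28.0 CPM). Ctrl-PBS replicate 1 was highest in Sgk1 (678 CPM) and Ctrl-PBS replicate 4 in Ptgds (165 CPM).

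Among exposed mice without CBD, GW-PBS replicate 4 was highest in Spint2 (6.41 CPM), Lbp (2.07 CPM) and the choroid plexus and ependymal sum (498 CPM), and lowest in Cxcl2 (4.79 CPM) and Cx3cr1 (3785 CPM). Cx3cr1 in that group spanned only 3785 to 3820.1 CPM, so the last is a small difference. GW-PBS replicate 1 was highest in Fcnb (8.22 CPM) and Nrgn (2.22 CPM) and lowest in Trpv2 (124 CPM). GW-PBS replicate 3 was highest in Faah (0.671 CPM) and lowest in Tmem119 (5884 CPM).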

How the results depend on the processing

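In GW-CBD-PBS against Ctrl-PBS edgeR called 0 genes with size factors of the DESeq2 type, without a filter on low counts, with the compared groups alone, after leaving out 3 libraries of the series in which neutrophil markers were raised, and under a replicate block. The count was 11 in DESeq2 and 15 in limma voom. Leaving out 1 library at a time gave 0 to 1 calls, the 1 being Ndrg1 without Ctrl-PBS replicate 1. In GW-CBD-PBS against GW-PBS the counts were 3 with DESeq2 (Tada2b, Hus1 and Kcne4), 217 with limma voom and 1 with the compared groups alone (Tada2b), beside 0 in edgeR. The cause of these differences was not tested. With the replicate block, 678 genes had an unadjusted p under 0.05 in GW-CBD-PBS against Ctrl-PBS, beside 923 without it. Same-numbered libraries deviated together only weakly (correlations of 0.017, 0.21 and 0.092 for numbers 2, 3 and 4). The libraries numbered 3 correlated best with each other, while numbers 2 and 4 of GW-CBD-PBS correlated best with another number. Whether a shared number stands for shared processing cannot be told from so few libraries. The distance statistic of 0.0124 was -0.000918 without the filter, and from -0.0558 to 0.0690 with 1 library left out. The count of genes with an interval within 2-fold stayed within 1.5 times of 9417 under each alternative run. Size factors of the DESeq2 type moved the median of all genes by -0.02 on the log2 scale and turned no list's median round. Of 976 estimates of 70 named genes under alternatives, 22 in 10 genes changed sign (none was called), and 12 became calls. Among estimates that were not called, 44 moved by over 1 SE, 8 of these without Ctrl-PBS replicate 3. With 3 and 4 libraries, most intervals of genes under 5 CPM reached past 2-fold.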

Other observations

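Genes named above that were higher in every GW-CBD-PBS library than in every GW-PBS and Ctrl-PBS library were looked up in the LPS-injected groups. They were picked after their values were seen and with no test, and Plaa, which was also higher in this way, was not looked up. Tada2b ranged from 26.5 to 30.3 CPM in GW-CBD-PBS, 4.54 to 25.5 CPM in GW-CBD-LPS (n = 4), 30.6 to 50.9 CPM in GW-LPS (n = 3), 6.93 to 31.0 CPM in Ctrl-LPS (n = 4), 4.62 to 8.90 CPM in GW-PBS and 5.94 to 12.03 CPM in Ctrl-PBS. High values of this gene thus also occurred with LPS and no CBD, both in exposed mice (GW-LPS) and in unexposed mice (Ctrl-LPS replicate 2, 31.0 CPM). Qk ranged from 520.1 to 580.0 CPM in GW-CBD-PBS, 177 to 556 CPM in GW-CBD-LPS, 374 to 464 CPM in GW-LPS, 123 to 335 CPM in Ctrl-LPS, 183 to 311 CPM in GW-PBS and 199 to 303 CPM in Ctrl-PBS. Khdrbs3 ranged from 57.3 to 115 CPM in GW-CBD-PBS, 13.3 to 84.9 CPM in GW-CBD-LPS, 26.1 to 59.4 CPM in GW-LPS, 4.14 to 25.2 CPM in Ctrl-LPS, 7.36 to 33.0 CPM in GW-PBS and 12.7 to 26.0 CPM in Ctrl-PBS.

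In all 6 genes looked up (Tada2b, Qk, Khdrbs3, Git1, Chsy1 and Brd1) the lowest GW-CBD-LPS library was replicate 4, with 27.0 CPM of Git1, 32.1 CPM of Chsy1 and 16.1 CPM of Brd1. In all 6 the highest Ctrl-LPS library was replicate 2. In GW-LPS the order was not shared, with replicate 3 highest for Tada2b, Chsy1 and Brd1 and lowest for Qk and Khdrbs3, and in GW-CBD-PBS the highest library also differed between the genes.

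Ndrg1, which was lower in GW-CBD-PBS than in Ctrl-PBS, ranged from 2.26 to 3.53 CPM in GW-CBD-PBS, 2.11 to 3.44 CPM in GW-CBD-LPS, 1.42 to 1.97 CPM in GW-LPS, 2.44 to 4.42 CPM in Ctrl-LPS, 3.02 to 5.40 CPM in GW-PBS and 4.45 to 16.8 CPM in Ctrl-PBS. The values above 6 CPM were all in Ctrl-PBS replicates 2, 3 and 4.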
